A study of Brassica rapa subsp. pekinensis with 2 samples.

Results

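Hormone signalling genes that were lower in male sterile than in male fertile flower buds were examined in the Chinese cabbage line AB02 (Brassica rapa subsp. pekinensis). The members are the 9 Bra genes that the authors' deposited pathway table lists under plant hormone signal transduction, out of 41019 Bra genes measured. Buds of fertile plants gave 1 library and buds of sterile plants gave 1 library, both from the same line. An AB line segregates into fertile and sterile plants, and the title of the series describes the sterility as genic and inherited through multiple alleles. Plants were raised in a greenhouse from vernalized seed. The labels give neither the bud stage nor the number of plants per library. With 1 library per group no difference has a replicate check, and no test across genes was made.

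The members were chosen by the authors' calls, which rest on the RPKM values of these same 2 libraries. The differences of the 9 genes are therefore a description, and their direction supports nothing further. The row held 7 Arabidopsis codes out of 232 in the pathway, and the authors' deposited table gave it an enrichment p-value of 0.67, or 1 after correction. By p-value it stood at rank 54 of 76 pathways there, so the authors' own test did not set the pathway apart. All 9 genes appeared in this row and in no other row of the pathway table. The files gave a symbol for 2 of the 9, both JAR1. The others carried an Arabidopsis code alone, and their families are named here from the Arabidopsis gene with that code.

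Auxin is perceived in the nucleus by receptors that trigger the breakdown of Aux/IAA repressors, which frees auxin response factors to switch on early genes. SAUR genes (small auxin up RNA) and GH3 genes are classical early auxin genes. In Arabidopsis, SAUR proteins promote cell expansion by restraining phosphatases that switch off the proton pump of the plasma membrane, and GH3 enzymes join hormones or related acids to amino acids. Jasmonate acts through another receptor, COI1, which binds jasmonate joined to isoleucine and sends JAZ repressors to breakdown. JAR1 is the GH3-type enzyme that makes this conjugate. Arabidopsis plants that lack jasmonate or its receptor are male sterile, with anthers that do not open in time and pollen of poor viability. This holds for jasmonate and COI1, and is not said of JAR1, whose part in fertility was not tested here.

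The 9 genes comprised 6 SAUR genes, 1 further GH3 gene and 2 copies of JAR1. By hormone, 7 were grouped with auxin from their SAUR or GH3 family and 2 with jasmonate. The files do not give this grouping, and the 7 are called auxin genes below. Which hormone or acid the further GH3 gene acts on was not examined. No receptor, repressor or transcription factor was among them. Levels are given as RPKM, which scales the reads of a gene by its length and by the depth of the library, and can be compared between genes because they are set per length. Over the 9 genes the median RPKM was 54.0 in the fertile library and 2.95 in the sterile library. Over the 27940 genes kept, those whose higher RPKM was at least 1, the medians were 9.60 and 9.67. Over the 906 genes listed as lower in the authors' deposited table, the fertile median was 58.3 RPKM, so the members were near other listed genes. Counted as lower was a gene whose log2(RPKM + 1) was at least 1 lower in sterile buds, which is a rule of size and understates the difference of low genes. By that rule 14.5% of the genes kept were lower in sterile buds, and 9 of the 9 members were. Listed as lower in the authors' deposited table were 2.21% of all Bra genes, and 9 of the 9 members by choice.

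**Figure D1:**
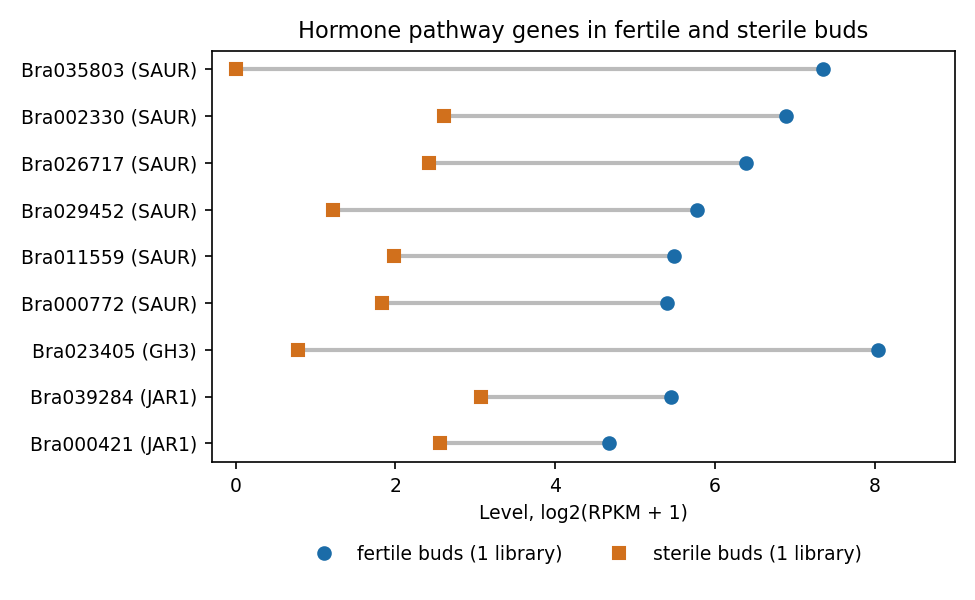
Level of each of the 9 hormone pathway genes as log2(RPKM + 1), horizontal axis, in the fertile library (circles) and the sterile library (squares), with the family in brackets. In each gene the sterile value lies to the left, with a sterile minus fertile difference from -2.12 for the JAR1 copy Bra000421 to -7.36 for the SAUR gene Bra035803.

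The values rest on few reads in sterile buds. If gene lengths are whole multiples of 3 bp, as coding sequences are, the libraries held 1803154 reads (fertile) and 1567647 reads (sterile). A single read in a gene of 1 kb was then worth 0.555 RPKM in the fertile library and 0.638 RPKM in the sterile library. Together the 9 genes drew 1451 fertile reads and 48 sterile reads. In sterile buds 6 of the 9 had 3 reads or fewer. Folds are therefore given with an exact (Clopper-Pearson) 95% interval on the read counts, called the counting interval, which covers counting error only, since sequencing reads are not independent molecules and plants were not replicated. In bulk buds, fewer cells of a type and less RNA per cell cannot be told apart.

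Among the auxin genes, the GH3 gene Bra023405 (AT5G13380) had the highest level in fertile buds. It stood at 262 RPKM (844 reads) in fertile and at 0.714 RPKM (2 reads) in sterile buds. In fertile buds its level exceeded that of 97.2% of the genes kept. The fertile level was 367-fold the sterile level, with a counting interval from 101 to 3034. Its recovered length was 1788 bp. The authors' deposited table gave a log2 fold, fertile over sterile, of 8.76, which includes an extra scaling of 0.239 that the RPKM ratio lacks, and a q-value of 2.05e-92. By this deposited fold, which uses a stand-in value for genes at 0 reads, Bra023405 ranked at 88 among the 906 genes listed as lower in sterile buds. The lower end of its counting interval lay above the upper end of both JAR1 copies, although all 3 genes belong to the GH3 family.

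The SAUR gene Bra035803 (AT3G20220) was the only member without a read in sterile buds. It had 163 RPKM (104 reads) in fertile buds and 0 reads in sterile buds. At its length of 354 bp, the shortest of the 9, a level of up to 5.41 RPKM (3 reads) in sterile buds would be compatible with the count of 0. Set against those 3 reads the gene was 30.1-fold lower, and the counting interval, which also covers the fertile reads, began at 24.1. Although it lay below Bra023405 on the log2(RPKM + 1) scale, by -7.36 against -7.26, this order follows from the pseudocount, and by reads the interval of Bra023405 began higher, at 101. Among all genes listed as lower in the authors' deposited table, 52.4% were at 0 in sterile buds, against 11.1% (1 of 9) here.

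The next highest SAUR gene, Bra002330 (AT5G20810), had 117 RPKM (106 reads) in fertile and 5.09 RPKM (4 reads) in sterile buds. The fertile level was 23.0-fold the sterile one (interval 8.74 to 86.1). Bra026717 (AT1G16510) followed, with 83.0 RPKM (66 reads) in fertile and 4.34 RPKM (3 reads) in sterile buds. This was a 19.1-fold difference (interval 6.27 to 95.1). These 2 genes had the highest sterile levels of the SAUR group, and stood there at 4.34% and 5.23% of their fertile levels.

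A pair of SAUR genes shared the code AT4G12410. Bra029452 had 54.0 RPKM (47 reads) in fertile and 1.32 RPKM (1 read) in sterile buds, which gave a ratio of 40.9 (interval 6.98 to 1648). Bra000772 had 41.2 RPKM (37 reads) in fertile and 2.56 RPKM (2 reads) in sterile buds, which gave a ratio of 16.1 (interval 4.15 to 138). The copies were close in fertile buds, where Bra029452 was 1.31 times Bra000772, and of similar length at 483 and 498 bp. Their intervals overlap, and the order of their sterile levels turns on 1 read against 2 reads. With the reads of both copies summed the ratio was 24.3 (interval 8.05 to 120). The last SAUR gene, Bra011559 (AT4G34750), had 43.6 RPKM (34 reads) in fertile and 2.95 RPKM (2 reads) in sterile buds. Its ratio of 14.8 was the smallest of the group (interval 3.79 to 127).

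In fertile buds the 6 SAUR genes ranged from 41.2 to 163 RPKM, a 3.95-fold spread against 10.7-fold over the 9 genes. In sterile buds they ranged from 0 to 5.09 RPKM. Their lengths ran from 354 to 501 bp. Summed over the group, 394 fertile reads stood against 12 sterile reads, which gave a 28.5-fold difference (interval 16.2 to 55.7). This interval of the sum leaves out the spread of folds between the genes. No pair of the 5 SAUR genes with sterile reads had counting intervals that lay apart, so their order by fold was not detectable at this depth.

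**Figure D2:**
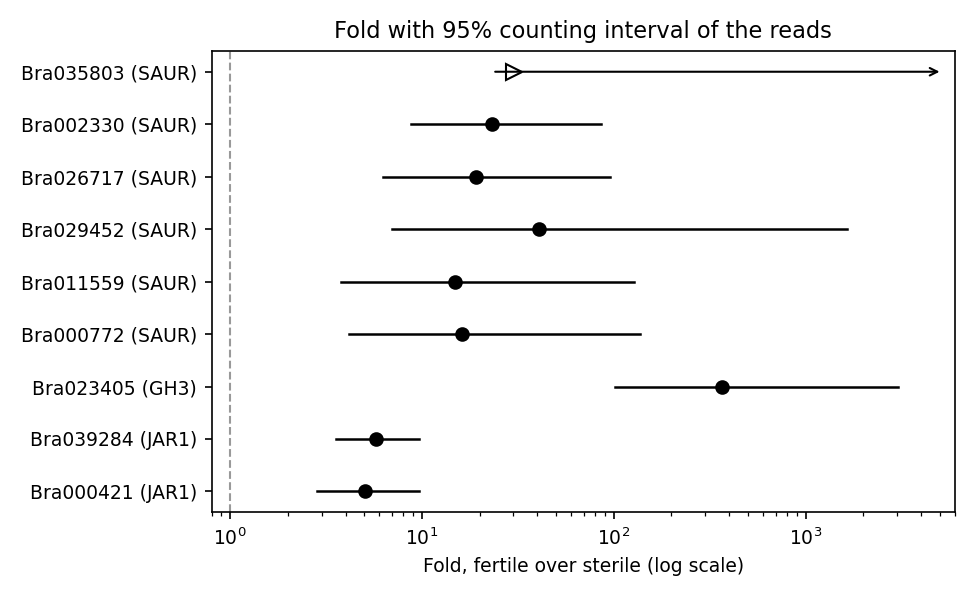
Fold of fertile over sterile buds for each gene on a log axis (dots), with lines for the 95% counting interval of the reads and a dashed line at equality. The open triangle marks the fold of 30.1 against 3 sterile reads for Bra035803, which had 0 reads in sterile buds. Its arrow starts at the lower end of the counting interval, 24.1. The JAR1 copies lie between 5.03 and 5.74, while the GH3 gene lies at 367.

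Both copies of JAR1 (AT2G46370), the jasmonate-conjugating enzyme, had smaller folds than any of the auxin genes. Bra039284 had 42.5 RPKM (132 reads) in fertile and 7.41 RPKM (20 reads) in sterile buds, so the sterile level was 17.4% of the fertile level. The fold was 5.74 (interval 3.57 to 9.70). Bra000421 had 24.5 RPKM (81 reads) in fertile and 4.88 RPKM (14 reads) in sterile buds, which left 19.9%. The fold was 5.03 (interval 2.83 to 9.61). In the auxin genes the sterile level was between 0% and 6.77% of the fertile level. The authors' listing had limits of fold and q-value, so a gene with few reads could be listed only at a larger fold. Bra011559, Bra000772, Bra029452 and Bra026717 had fewer fertile reads (34 to 66) than either JAR1 copy. The choice of members thus favours larger folds in these SAUR genes, and the contrast with JAR1 is a description only.

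The JAR1 copies held the same order in both libraries. Bra039284 was 1.73 times Bra000421 in fertile and 1.52 times in sterile buds, and their folds overlap almost fully. Their lengths were 1722 and 1830 bp. Summed, 213 fertile reads stood against 34 sterile reads, which gave a 5.45-fold difference (interval 3.78 to 8.07). That interval lies below the interval of the summed SAUR reads. Both treat the summed reads as a single count and leave out the spread of folds between genes. Their separation is therefore a description of the sums only. Taken singly, the interval of each JAR1 copy overlaps those of the 5 SAUR genes with sterile reads and lies below those of Bra035803 and the GH3 gene. How reads shared between near-identical copies were counted is not given in the sources used here, so the split between copies of a pair is uncertain and the sums are less affected. Among the 9 genes, Bra000421 was nearest to the authors' limits. Its fold of 5.03 compares with 4.03, the smallest RPKM ratio among the genes of the authors' deposited table above 0 in both libraries. By q-value Bra011559 was nearest, at 0.000346 against a highest q-value of 0.000999 in the authors' deposited table. Values for pathway genes just outside those limits were not analysed here, because the files pair no Arabidopsis code with them.

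The make-up of the group is given as a description, since the sterile values rest on 48 reads in all, 34 of JAR1, 12 of SAUR genes and 2 of the GH3 gene. Summed over the 9 genes the level was 831 RPKM in the fertile library and 29.3 RPKM in the sterile library. The GH3 gene held 31.5% of this sum in fertile and 2.44% in sterile buds. JAR1 held 8.07% in fertile and 42.0% in sterile buds. The SAUR genes held 60.4% and 55.6%.

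**Figure D3:**
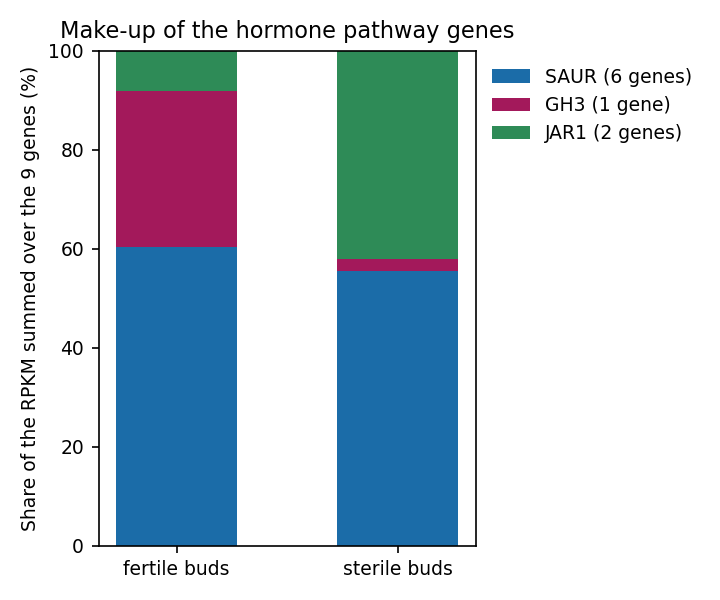
Share of the RPKM summed over the 9 genes, in percent, held by the SAUR genes, the GH3 gene and the JAR1 copies in the fertile and the sterile library. The GH3 share is 31.5% in fertile and 2.44% in sterile buds, and the JAR1 share is 8.07% and 42.0%, where the sterile shares rest on 48 reads.

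Relative to all genes, the group was high in fertile buds and below the middle in sterile buds. Selection as lower in sterile buds favours such levels, so they are a description only. In fertile buds each of the 9 exceeded at least 71.2% of the genes kept, and in sterile buds none exceeded more than 43.8%. The median difference, sterile minus fertile, was -3.98 on the log2(RPKM + 1) scale over the 9 genes. It was 0.17 over the genes kept, so relative to that median each difference here is more negative by 0.17, and -4.84 over the 906 genes listed as lower in the authors' deposited table. The 9 genes lay on both sides of the latter value. Bra023405 and Bra035803 were below it, with 15.7% and 14.7% of the listed genes still lower than they were. The JAR1 copies were among the listed genes with the smallest differences, since 93.6% of those genes had larger ones than Bra039284 and 96.2% had larger ones than Bra000421.

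**Figure D4:**
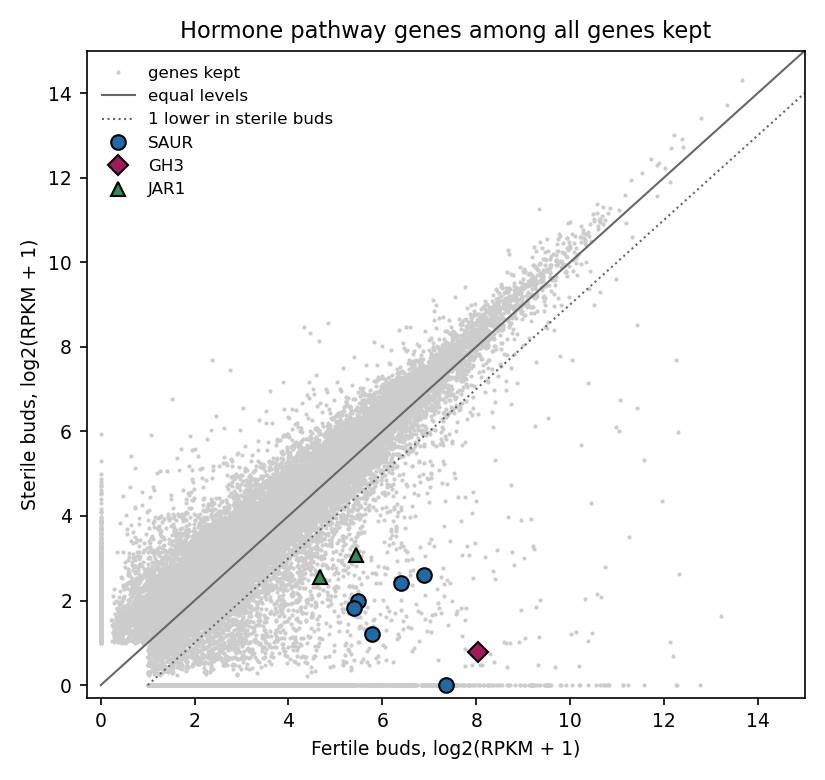
Level in sterile buds against level in fertile buds, both as log2(RPKM + 1), for the 27940 genes kept (grey) and the 9 hormone pathway genes (coloured by family). The solid line marks equal levels and the dotted line a value 1 lower in sterile buds. The 9 genes lie below the dotted line, the JAR1 copies nearest to it and the GH3 gene and Bra035803 farthest.

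Pollen markers are given as values only, since a marker could be matched only if the authors had called its gene different between these libraries. Of 4 pollen markers 3 had a gene in the authors' comparison (PPME1, AT59 and PGA4, which encode pectin enzymes), represented by 8 gene copies. Their summed level was 2361 RPKM in the fertile library and 0.463 RPKM in the sterile library, and 7 of the 8 copies were at 0 in sterile buds. The genes listed as lower in the authors' deposited table were selected for that direction. They held 16.7% of the RPKM summed over Bra genes in the fertile library and 0.319% in the sterile library. The part of pollen cells or of bud composition in the hormone gene differences was not tested. Of 8 tapetum, 4 pistil and ovule and 2 green tissue markers, 0 could be matched by code, so their levels were not analysed here.

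Hormone genes outside the row were looked for by a list of 191 Arabidopsis genes of auxin, jasmonate, abscisic acid, ethylene, gibberellin, cytokinin, brassinosteroid and salicylic acid pathways. The files paired 225 genes with a code, each of them already called different by the authors, and 6 of these were on the list. Apart from the JAR1 copies they were 4 genes that the list places under hormone synthesis or modification. All 4 were higher in sterile buds by the size rule (0 lower), as were 11.5% of the genes kept. That share has another base, since genes near equality could not be matched. Of the 1012 genes in the authors' deposited table, 106 were higher in sterile buds. The count depends on the list, which also held only 2 of the 9 members and left out the cytokinin oxidase gene Bra035640 (CKX3), at 31.3 RPKM in the fertile library and 4.10 RPKM in the sterile library, named here after its values were seen. Bra031798 (AT1G12010, ACO3), which encodes an ethylene-forming oxidase, had 3.44 RPKM (6 reads) in fertile and 34.3 RPKM (52 reads) in sterile buds, 9.97-fold higher (interval 4.28 to 28.4). Bra008271 (OPR1), a reductase related to the jasmonate synthesis enzyme OPR3, had 23.2 RPKM in the fertile library and 159 RPKM in the sterile library. Whether OPR1 itself acts in that synthesis was not examined. The DOGT1 copies, which encode a glucosyltransferase for brassinosteroids and cytokinins, stood at 10.4 and 40.9 RPKM in the fertile library and at 88.1 and 217 RPKM in the sterile library. Receptors, Aux/IAA and JAZ repressors and response factors on the list had no paired gene, so their levels were not analysed here, and nothing follows from their absence.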

How the data were processed

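The authors deposited RPKM for both libraries, per the file headers, and a comparison that gives log2 fold changes with p-values and q-values by the authors. Per the submitters' processing notes the tool was TopHat. Version, genome build, annotation and statistical test: not given in the sources used here. Features of ribosomal RNA, 10338 in number, were left out. The members, the gene lists and the rule for named genes (all 9 genes, listed hormone genes and adjacent identifiers) were chosen with earlier results of these data known.

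Whole reads were recovered from the deposited values. Genes at 0 in 1 library had fold changes in whole multiples of 1 read, within 1.08e-10. In those at 0 in sterile buds the p-value followed from the deposited log2 fold, less its extra scaling, and the geometric mean of the reads. A stand-in read count took the place of the 0 there. For the 522 genes above 0 in both libraries whose p-value could be read, that relation gave whole multiples of the smallest reads, within 0.00376. Their lengths were whole multiples of the length step found in the genes at 0, and taking that step as 3 bp is an assumption. The p-values thus hold no spread between plants. Library totals rest on it, and with 1 bp they would be 5409462 and 4702941 reads. Recovery was tested on simulated data.

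Differences used a pseudocount of 1 and kept genes whose higher RPKM was at least 1. A fold against 0 reads was set against 3 reads in that library. Python 3.11.15, pandas 2.3.3, NumPy 2.4.6 and SciPy 1.17.1 were used. Alternatives were other scalings, pseudocounts, filters and thresholds, and the smallest whole reads. Genome coordinates and sequences were not used here.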

Additional observations from a re-analysis of the deposited data

How the results depend on the processing

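The 9 genes stayed lower in sterile buds under each scaling, pseudocount and threshold tried, 9 of 9 in each. As they were chosen as lower in these same libraries, this count could hardly change and gives no further support. Their median difference ranged from -4.17 with the trimmed mean of log ratios to -3.22 with a pseudocount of 5. The scalings shifted sterile values by -0.20 and -0.24 on the log2 scale. Of 36 single differences recomputed, 34 stayed within the counting interval and 0 changed sign. The exceptions were Bra023405 at -5.55 with a pseudocount of 5 and Bra035803 at -8.35 with a pseudocount of 0.5. The interval was set with a pseudocount of 1, so values with other pseudocounts lie on another scale. For Bra035803, at 0 sterile reads, the interval began at its own value, -7.36. Scaling could not move that value, and a pseudocount of 0.5 had to fall outside. The count of 34 is therefore no check of stability. Over all genes, the 4042 lower genes were 14.5% of the 27940 genes kept. They became 1935 with a pseudocount of 5 and 1888 with a threshold of 2. With a minimum RPKM of 5 they became 2426, but that filter also keeps fewer genes, so this count has another base. Steps of 1 bp left every member's ratio as it was, which had to be so because the length step cancels between the libraries. With the smallest whole reads, an alternative chosen after seeing the data, the ratios were the same and 5 of 8 intervals were wider, for Bra011559 from 2.32 to 618. No paired analysis was possible because each group has 1 library, and no library could be left out. Depth limits the sterile values, since 1 read in a SAUR gene was worth 1.27 to 1.80 RPKM.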

Other observations

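Bra035640 (CKX3), a cytokinin-degrading oxidase that the authors' deposited pathway table lists under zeatin biosynthesis, was lower in sterile buds like the 9 genes, and was chosen after its values were seen. It had 31.3 RPKM (88 reads) in fertile and 4.10 RPKM (10 reads) in sterile buds, a 7.65-fold difference (interval 3.97 to 16.5). The DOGT1 copies of the same row, whose product also acts on cytokinins, were higher in sterile buds.

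Identifiers next to the 9 genes by number were examined as a description, and whether they are neighbours in the genome was not examined. By the size rule 3 of 17 such genes were lower in sterile buds, 2 were higher, and 3 were at 0 in both libraries. Over all genes kept 14.5% were lower and 11.5% higher. The 17 include genes below the filter of at least 1 RPKM, so the bases differ and nothing is read from these counts. Both identifiers beside the SAUR gene Bra002330 were lower. Bra002329 had 75.7 RPKM in the fertile library and 2.26 RPKM in the sterile library, and Bra002331 had 15.9 and 3.32 RPKM. Beside Bra035803, which had 0 reads in sterile buds, Bra035802 had 57.7 RPKM in the fertile library and 88.9 RPKM in the sterile library.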
